A study of Mus musculus with 18 samples.

Results

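The mir-182, mir-183 and mir-96 cluster is a group of 3 miRNA hairpins that lie together on mouse chromosome 6. Its members are the entries mmu-mir-182, mmu-mir-183 and mmu-mir-96, 3 of the 1006 miRNA precursors of the deposited count table (the prefix mmu, for mouse, is left off below), and all 3 passed the filter on low counts that left 273 precursors for testing. The cluster was chosen because its hairpins stood at low levels in control cells and at higher levels in both knockouts described here. Its levels against control are therefore given as a description, with no test.

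The study sequenced small RNA in 18 libraries of Baf3, an interleukin-3-dependent mouse pro-B cell line. All cells carried fluorescent reporters of mutated miR-15a and miR-16 and were transduced with Cas9 and a guide RNA, so the controls share the reporters, Cas9 and puromycin selection with the knockouts. The genotypes were Rag1_KO (control, a gene without a role in miRNA biogenesis), Safb1 KO with Safb2 KO (SAFB here) and Erh KO (ERH here). Each genotype had 2 guide populations of 3 libraries, 1 from each of 3 labelled batches, which gives 6 libraries per genotype. The knockout populations were polyclonal, were sorted for derepression of the miR-15a reporter and then regrown, so they are not single clones. How control cells were sorted is not given in the labels. Small RNA libraries hold no mRNA, so loss of the targeted genes could not be checked in these data.

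A miRNA is cut from a hairpin in a longer primary transcript by the Microprocessor, which SAFB proteins and ERH bind, and the released hairpin is then trimmed to a mature strand that pairs with mRNAs through its seed. Where several hairpins share a primary transcript, their output follows the transcript's amount and the efficiency with which each hairpin is cut. The cluster is best known from sensory organs, where it is abundant in hair cells and photoreceptors, and mutations in the seed of miR-96 cause hearing loss. In lymphocytes miR-182 is known to be induced by interleukin-2 and to repress Foxo1.

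The sequences are shown because the 3 members are near relatives: their main strands, from the 5p arm, carry seeds (bases 2 to 8, in capitals) that differ at few positions. They are RefSeq's, on build GRCm38.p6, written 5′ to 3′.
mmu-miR-182-5p: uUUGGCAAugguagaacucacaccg
mmu-miR-183-5p: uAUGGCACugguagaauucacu
mmu-miR-96-5p: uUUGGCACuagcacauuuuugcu

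Counted from the 5′ end without gaps, miR-182-5p and miR-183-5p were identical at 18 of 22 bases, with the differences U2A, A8C, C17U and A22U (the base of miR-182-5p first). miR-96-5p matched miR-183-5p at 13 of 22 bases and miR-182-5p at 12 of 23. Within the seed miR-96-5p shared 6 of 7 bases with each of the others, and miR-182-5p shared 5 of 7 with miR-183-5p. No seed was shared whole by members of the cluster. miR-1271-5p had the whole seed of miR-96-5p, but its entry held 3 counts, in 1 of the 18 libraries. How reads that match several precursors were assigned is not given in the sources used here, and an assignment that allows several mismatches could move reads between mir-182 and mir-183.

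The full hairpins are the substrates of the Microprocessor, and the deposited entries count reads per hairpin without separating its arms. The annotated mature strands of both arms are in capitals.
Mir182: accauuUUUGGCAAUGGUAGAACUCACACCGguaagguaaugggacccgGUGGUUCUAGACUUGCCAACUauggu
Mir183: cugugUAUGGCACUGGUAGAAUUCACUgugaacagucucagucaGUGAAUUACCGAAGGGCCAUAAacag
Mir96: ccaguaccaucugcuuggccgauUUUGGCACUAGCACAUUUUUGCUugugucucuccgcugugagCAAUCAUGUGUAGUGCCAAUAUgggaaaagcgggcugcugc

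The annotated lengths were 75 bases for Mir182, 70 for Mir183 and 106 for Mir96. The predicted folding energy was -29.9 kcal/mol for Mir182, -26.2 kcal/mol for Mir183 and -47.9 kcal/mol for Mir96, or -0.40, -0.37 and -0.45 kcal/mol per base. These energies depend on how much flank the annotation includes and are a description of the sequences only.

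In GENCODE M21 on build GRCm38, all 3 genes lie on the minus strand of chromosome 6: Mir183 (ENSMUSG00000065619.2) at 30169668 to 30169737, Mir96 (ENSMUSG00000065586.1) at 30169446 to 30169551 and Mir182 (ENSMUSG00000076361.1) at 30165918 to 30165992. In the direction of transcription Mir183 comes first, Mir96 follows after 116 bp and Mir182 after a further 3453 bp, and the cluster spans 3820 bp. No other annotated gene overlaps a hairpin. The nearest other genes are on the plus strand: the lincRNA gene Rncr4 starts 3155 bp away and the protein-coding gene Nrf1 ends 12459 bp away. Each member has a single gene copy, so no entry sums several loci.

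The libraries held 2699323 to 4470073 miRNA counts and detected 396 to 455 precursors, and the 4 spike-in RNAs took 0.165% to 0.366% of all counts. The cluster was a small part of each library. Its summed level was 10.5 ± 3.01 CPM over control, 101.9 ± 32.0 over SAFB and 247.5 ± 43.3 over ERH libraries (SD, n = 6 each). CPM values are counts scaled to library size, with trimmed mean of M-values (TMM) factors. In every genotype mir-182 had the most counts and mir-96 the fewest, and this order held in 18 of 18 libraries. Counts of different miRNAs also carry the capture bias of library preparation, so the order is one of counts and not of molecules.

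mmu-mir-182 is the most downstream and most counted hairpin of the cluster. In control it had 28, 27 and 13 counts with guide 1 and 12, 19 and 15 with guide 2 (batches 1, 2 and 3 in that order here and below). In SAFB it had 272, 221 and 124 counts with guide 1 and 189, 202 and 166 with guide 2. In ERH it had 454, 558 and 472 counts with guide 1 and 382, 440 and 494 with guide 2. The genotypes formed separate ranges, with every SAFB library above every control library and every ERH library above every SAFB library. The level of mir-182 was 5.97 ± 1.93 CPM over control, 52.6 ± 14.5 over SAFB and 131.9 ± 26.6 over ERH libraries (SD, n = 6). The fitted log2 difference from control was 3.13 (SE 0.22) in SAFB and 4.45 (SE 0.23) in ERH.

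mmu-mir-183 is the first hairpin of the cluster. In control it had 15, 12 and 8 counts with guide 1 and 11, 10 and 6 with guide 2. In SAFB it had 245, 135 and 84 counts with guide 1 and 127, 124 and 114 with guide 2. In ERH it had 276, 307 and 247 counts with guide 1 and 208, 293 and 414 with guide 2. All knockout libraries lay above all control libraries, but SAFB and ERH overlapped: SAFB guide 1 of batch 1, at 68.9 CPM, exceeded ERH guide 2 of batch 1, at 49.8 CPM. The level of mir-183 was 3.32 ± 1.06 CPM over control, 37.3 ± 16.1 over SAFB and 81.6 ± 19.6 over ERH libraries (SD, n = 6). The fitted log2 difference from control was 3.49 (SE 0.29) in SAFB and 4.62 (SE 0.29) in ERH.

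mmu-mir-96 lies just downstream of mir-183 and was the least counted hairpin. In control it had 6, 5 and 2 counts with guide 1 and 3, 3 and 5 with guide 2, so single control libraries are at the limit of detection. In SAFB it had 64, 26 and 68 counts with guide 1 and 31, 39 and 33 with guide 2. In ERH it had 137, 131 and 72 counts with guide 1 and 128, 139 and 129 with guide 2. The genotypes again formed separate ranges, while SAFB guide 1 held both the lowest and the highest SAFB library. The level of mir-96 was 1.24 ± 0.38 CPM over control, 11.9 ± 5.58 over SAFB and 34.0 ± 6.37 over ERH libraries (SD, n = 6). The fitted log2 difference from control was 3.20 (SE 0.33) in SAFB and 4.72 (SE 0.31) in ERH.

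**Figure D1:**
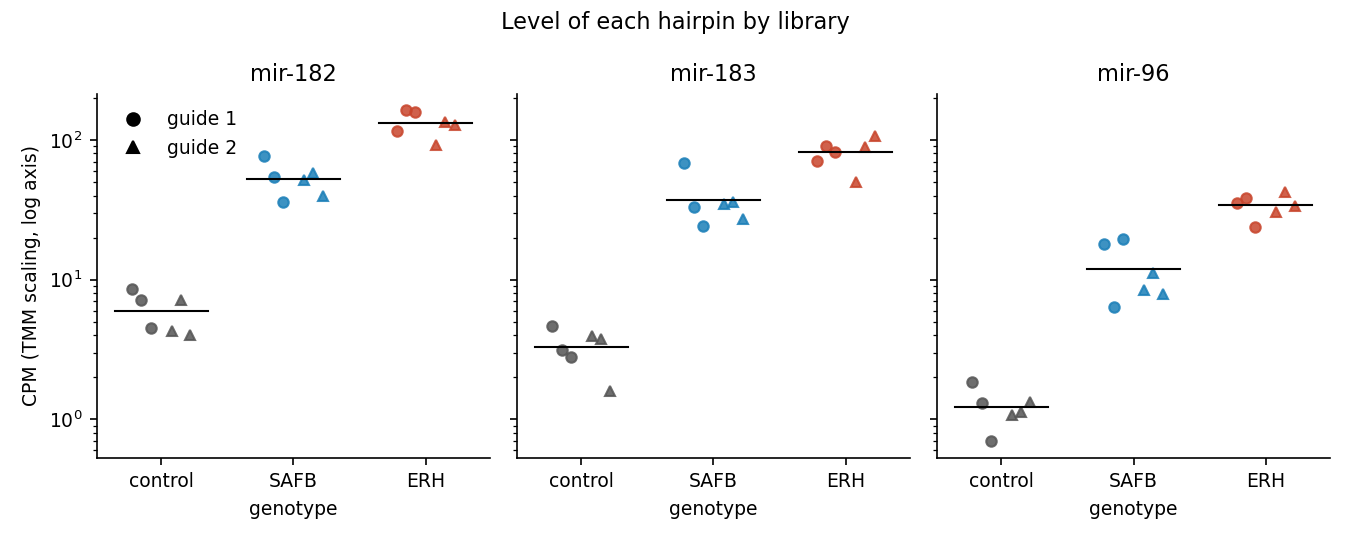
CPM of each hairpin on a log axis, 1 point per library, circles for guide 1 and triangles for guide 2, with the genotype mean as a line. All 6 SAFB and all 6 ERH libraries lie above the 6 control libraries for each hairpin, and SAFB and ERH overlap for mir-183 but not for mir-182 or mir-96.

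As fold changes, the fitted values were 8.76-fold, 11.3-fold and 9.21-fold above control in SAFB for mir-182, mir-183 and mir-96, and 21.9-fold, 24.6-fold and 26.4-fold in ERH. Of the 273 tested miRNAs, 56% were called in either direction in SAFB and 53.8% in ERH, at an adjusted p under 0.05 in edgeR. Groups that did not overlap, with the knockout higher, were found for 19.4% of them in SAFB and for 19.4% in ERH. By size of the log2 difference the members ranked 22, 9 and 18 of 273 from the highest in SAFB and 23, 17 and 13 in ERH, in the same order of members. These ranks describe how the members were chosen, and the 2 contrasts share the control libraries. In bulk RNA, more cells that make a miRNA and more of it per cell cannot be told apart.

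The spike-ins, added to total RNA in a fixed amount, give the same levels without reference to other miRNAs. Per 1000 spike-in counts, mir-182 was at 2.34 ± 0.88 in control, 17.6 ± 6.08 in SAFB and 63.1 ± 16.9 in ERH (SD, n = 6). mir-183 was at 1.32 ± 0.54, 12.7 ± 6.86 and 39.4 ± 13.4, and mir-96 at 0.49 ± 0.16, 4.14 ± 2.37 and 16.8 ± 6.50, in the same order of genotypes. The ratio of these means to control was 7.52, 9.62 and 8.49 in SAFB and 27.0, 29.9 and 34.5 in ERH for mir-182, mir-183 and mir-96, against 8.82, 11.2 and 9.65 and 22.1, 24.6 and 27.5 for means of CPM.

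The direct comparison of the knockouts was not used to choose the cluster. Its test treats the 6 libraries of a genotype as independent, although they come from 2 guide populations. The p-values and SE therefore do not measure the spread between populations. All 3 hairpins were higher in ERH than in SAFB (3 of 3 with an adjusted p under 0.05), against 39.6% of the 273 miRNAs called in either direction and 23.8% called higher. By size of this difference mir-182, mir-183 and mir-96 ranked 28, 38 and 16 of 273 from the highest. mir-182 was higher in ERH by 1.32 on the log2 scale (SE 0.18, edgeR adjusted p = 5.7e-06), or 2.50-fold. mir-183 was higher by 1.13 (SE 0.22, edgeR adjusted p = 0.00024), or 2.19-fold. mir-96 was higher by 1.52 (SE 0.23, edgeR adjusted p = 1.6e-05), or 2.87-fold. Every ERH library lay above every SAFB library for mir-182 and mir-96, and 5 of 6 ERH libraries did for mir-183; 14.3% of tested miRNAs had ERH above SAFB without overlap.

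Within batches 1, 2 and 3 the difference between ERH and SAFB in mean log2 CPM was 0.71, 1.39 and 1.90 for mir-182 and 0.28, 1.37 and 1.85 for mir-183. For mir-96 it was 1.36, 2.18 and 1.15. ERH was thus higher in each batch, by least for mir-182 and mir-183 in batch 1. That batch holds the SAFB library of highest mir-182 and mir-183 level, and in both ERH guide populations its library was the lowest for mir-182 and mir-183. Spike-in scaling shifts the median of all tested miRNAs between ERH and SAFB from 0.042 to 0.57, and turns the calls from 65 higher and 43 lower into 111 higher and 1 lower; with total counts the split was 115 to 8. The members were higher in ERH, and called, under each of these scalings.

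The guide populations of a genotype were edited independently, with a single population for each guide RNA. Their difference therefore holds the guide RNA and the population together, which cannot be told apart. For mir-182, guide 2 minus guide 1 was -0.42 (SE 0.37) in control, -0.15 (SE 0.26) in SAFB and -0.30 (SE 0.25) in ERH on the log2 scale. For mir-183 it was -0.23 (SE 0.53), -0.37 (SE 0.32) and 0.021 (SE 0.31), and for mir-96 -0.12 (SE 0.63), -0.66 (SE 0.33) and 0.12 (SE 0.30). None of the 9 passed the threshold in edgeR, where the adjusted p was 0.789 at the lowest, for mir-96 in SAFB, and none had an unadjusted p under 0.05. Over all 273 miRNAs, 0, 0 and 1 were called between the guides of control, SAFB and ERH, which is 0%, 0% and 0.366%, with 7, 10 and 18 at an unadjusted p under 0.05. The sign and size of the members' differences depended on the scaling. With spike-ins, mir-182, mir-183 and mir-96 were at 0.25, 0.42 and 0.51 in control and 0.28, 0.58 and 0.75 in ERH. Those of SAFB kept their sign, and none passed the threshold.

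Whether the hairpins stood higher by the same factor was asked with their ratio within each library, which needs no scaling between libraries. The ratio was not what the cluster was chosen on, although it comes from the same libraries. For mir-182 to mir-183 the log2 ratio averaged 0.83 ± 0.40 over control, 0.54 ± 0.20 over SAFB and 0.70 ± 0.25 over ERH libraries (SD, n = 6). The log2 ratio of mir-96 to mir-183 was -1.29 ± 0.57, -1.67 ± 0.71 and -1.24 ± 0.41, and that of mir-96 to mir-182 was -2.12 ± 0.38, -2.21 ± 0.74 and -1.95 ± 0.42. In each ratio the genotypes overlapped.

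No ratio differed between genotypes beyond the spread between libraries. Over 3 ratios and 3 comparisons, the 9 exact two-sided permutation tests (924 arrangements each) gave p-values from 0.156 to 0.853 and adjusted p-values from 0.699 to 0.853. For mir-182 to mir-183 the log2 difference from control was -0.29 in SAFB, with a 95% interval of -0.67 to 0.13, and -0.12 in ERH, with an interval of -0.53 to 0.33. For mir-96 to mir-183 it was -0.38 (-1.16 to 0.45) in SAFB and 0.049 (-0.61 to 0.63) in ERH. For mir-96 to mir-182 it was -0.095 (-0.79 to 0.67) in SAFB and 0.17 (-0.35 to 0.67) in ERH.

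Between the knockouts, ERH minus SAFB was 0.17 (-0.14 to 0.46) for mir-182 to mir-183, 0.43 (-0.34 to 1.10) for mir-96 to mir-183 and 0.26 (-0.55 to 0.95) for mir-96 to mir-182. The intervals come from inverting the permutation test. They are narrowest for mir-182 against mir-183 and leave room for a difference in either direction, so the tests do not show that the hairpins changed alike.

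**Figure D2:**
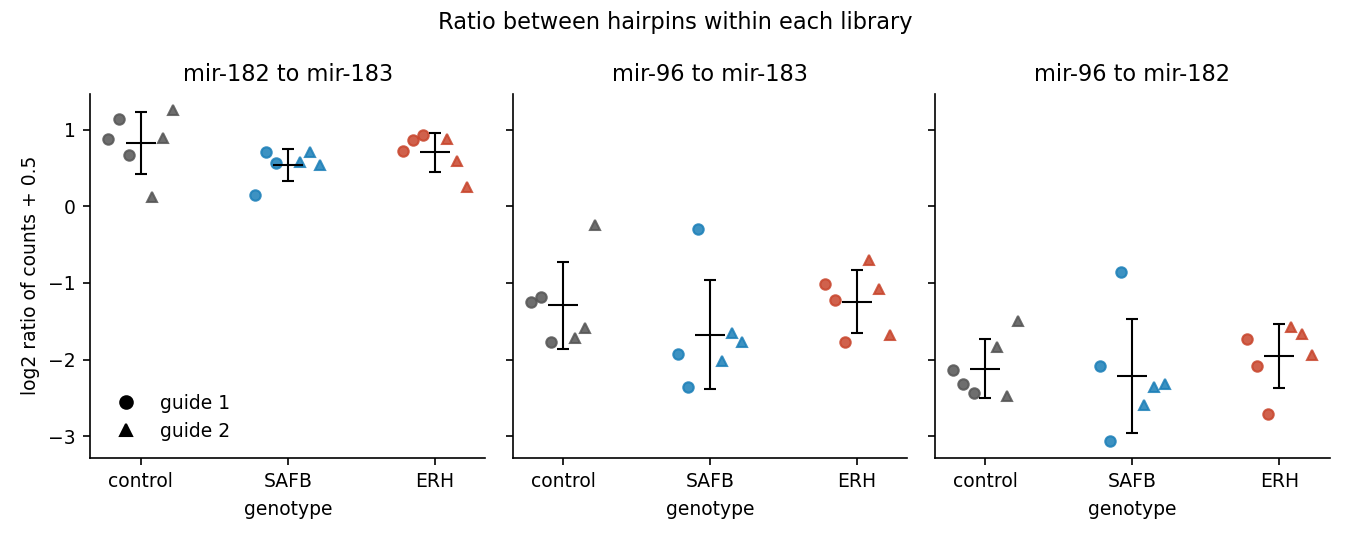
Log2 ratio of counts (0.5 added to each) between pairs of hairpins, 1 point per library, with the mean and SD of each genotype in black. The genotypes overlap in every ratio; SAFB guide 1 of batch 3 stands apart in mir-96 to mir-183 at -0.30.

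Within batches 1, 2 and 3, ERH minus SAFB for mir-96 to mir-183 was 1.12, 0.86 and -0.69, and for mir-96 to mir-182 it was 0.68, 0.84 and -0.73. The negative values of batch 3 came with guide 1, where SAFB had 68 mir-96 counts beside 84 of mir-183 and ERH had 72 beside 247. With guide 2 of batch 3, ERH was above SAFB as in batches 1 and 2, at log2 ratios of -1.68 against -1.77 for mir-96 to mir-183 and of -1.93 against -2.31 for mir-96 to mir-182. A difference between batches was not tested. For mir-182 to mir-183 the same differences were 0.44, 0.018 and 0.044.

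Counts summed over the 6 libraries of a genotype give the hairpins' shares of the cluster without a pseudocount. mir-182 made up 57.0% of the 200 cluster counts in control (95% Wilson interval 50.1% to 63.7%), 51.9% of the 2264 in SAFB (49.8% to 53.9%) and 53.0% of the 5281 in ERH (51.7% to 54.4%). mir-183 made up 31.0% (25.0% to 37.7%), 36.6% (34.7% to 38.6%) and 33.0% (31.8% to 34.3%). mir-96 made up 12% (8.20% to 17.2%), 11.5% (10.3% to 12.9%) and 13.9% (13.0% to 14.9%). In these sums the control interval overlapped that of each knockout for each hairpin, and those of SAFB and ERH overlapped for mir-182 but not for mir-183 or mir-96. The intervals cover counting error only, not the spread between libraries.

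These intervals cover counting error only, and in the knockouts the shares of single libraries spread further. The chi-square per degree of freedom of the 3 hairpins over 6 libraries was 0.417 in control, where counts are few, 6.93 in SAFB and 6.42 in ERH, and a value near 1 is what counting error alone gives. The share of mir-96 ranged from 6.81% to 24.6% over SAFB libraries and from 9.10% to 17.8% over ERH libraries. The share of mir-182 ranged from 44.9% to 57.9% and from 47.6% to 59.7%.

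The hairpins were also compared by how they moved from library to library inside a population, where genotype and guide are fixed. Over the 18 libraries, deviations of log2 CPM from the population mean had r = 0.811 for mir-182 with mir-183, 0.223 for mir-96 with mir-183 and 0.217 for mir-96 with mir-182. Within control libraries the values were 0.641, 0.234 and 0.640, within SAFB libraries 0.942, 0.206 and 0.011, and within ERH libraries 0.859, 0.290 and 0.196. In each genotype the r was higher between mir-182 and mir-183, which the long gap separates, than between mir-183 and its near neighbour mir-96; in control, mir-96 with mir-182 was level with mir-182 and mir-183. These correlations are a description; the libraries share their scaling, mir-96 has the fewest counts, and the difference between the correlations was not tested.

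**Figure D3:**
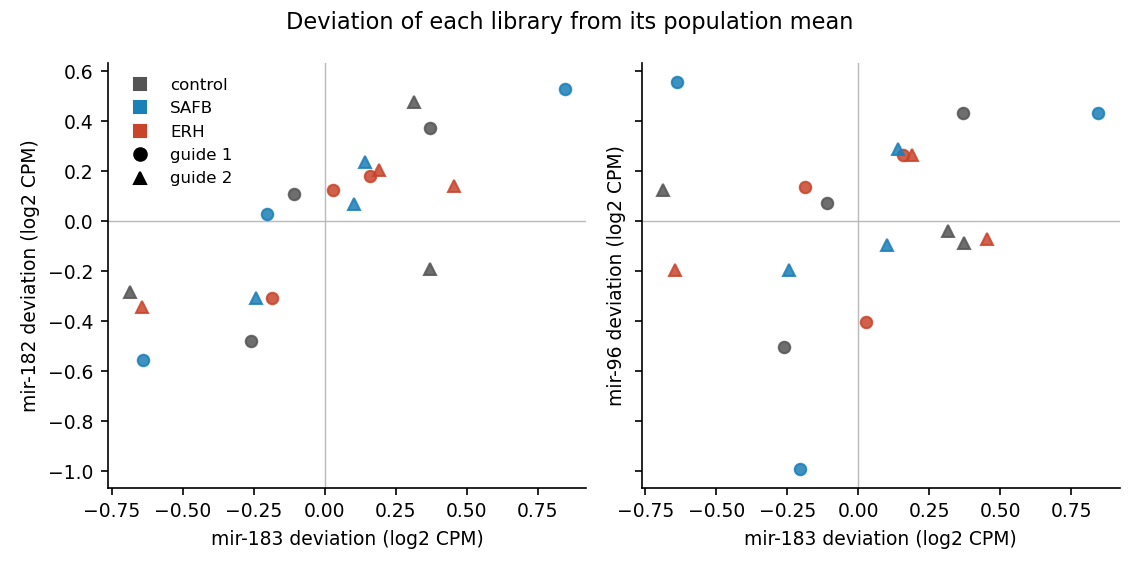
Deviation of each library from the mean of its guide population in log2 CPM, mir-182 (left) and mir-96 (right) against mir-183, coloured by genotype. Points follow a rising line for mir-182 (r = 0.811) and scatter for mir-96 (r = 0.223).

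Hairpins of other clusters were placed beside these pairs. Among tested miRNAs with a single gene copy, 41 other pairs, from 44 miRNAs, lay within 10 kb of each other on the same strand. The 3 pairs of the cluster differed in log2 fold change by 0.073 to 0.36 in SAFB and by 0.099 to 0.27 in ERH. Other pairs differed by a median of 0.36 in SAFB (0.0015 to 4.91) and of 0.26 in ERH (0.024 to 4.11). The fold changes against control chose the cluster, so these gaps are a description. Between ERH and SAFB, which the choice did not use, the pairs of the cluster differed by 0.19 to 0.39 and other pairs by a median of 0.40, with 22 of 41 wider than the widest pair of the cluster. Against control the widest gap belonged to mir-191 and mir-425 in SAFB and to let-7e and mir-125a in ERH.

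The cluster was chosen for a high fold change in all its hairpins, and the same was counted in other pairs. Pairs that hold a miRNA of several gene copies were not among them. In 1 of the 41 other pairs both miRNAs had a log2 fold change above 1 in SAFB, and in 1 of 41 in ERH. That pair, named after its values were seen, was mir-125a and mir-99b in both knockouts, at 3.61 and 3.46 in SAFB and 4.85 and 4.52 in ERH, while let-7e beside them was at 0.48 and 0.74.

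**Figure D4:**
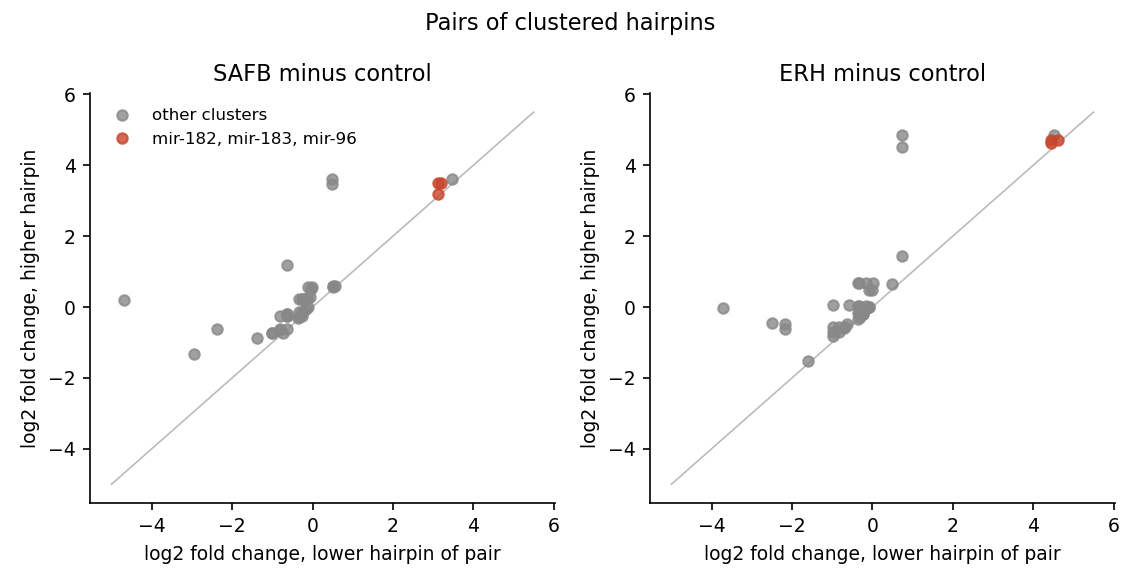
Log2 fold change against control of the higher and lower hairpin of each pair within 10 kb, in SAFB (left) and ERH (right); the grey line marks equal change. The 3 pairs of the cluster (red) lie near the line at 3.13 to 3.49 in SAFB and 4.45 to 4.72 in ERH, and most other pairs (grey) lie between -1 and 1.

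The miRNAs with the most similar pattern were found by Pearson's r of log2 CPM with the mean of the 3 members over the 18 libraries, among 179 other miRNAs with a mean of at least 10 CPM. They were mir-196a (r = 0.992), mir-196b (0.992), mir-342 (0.990), mir-148a (0.990) and mir-125b (0.989). The median r over the 179 was -0.26. mir-196a and mir-196b are encoded in the Hox clusters, mir-342 in an intron of Evl, and mir-125b has a gene copy in a cluster with mir-100 and let-7a. By deviations from population means, which genotype does not enter, the same 5 miRNAs came first: mir-148a (0.853), mir-342 (0.850), mir-196b (0.809), mir-196a (0.797) and mir-125b (0.737), against a median of -0.027.

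Their levels ran in the same order of genotypes. mir-148a was at 26.0 ± 8.90, 266.3 ± 86.9 and 701.1 ± 219.2 CPM in control, SAFB and ERH (SD, n = 6). mir-196a was at 10.6 ± 5.47, 89.2 ± 34.5 and 237.0 ± 41.3 CPM, and mir-196b at 12.4 ± 3.55, 122.5 ± 32.7 and 299.5 ± 93.4 CPM. mir-342 was at 5.08 ± 1.97, 48.2 ± 17.6 and 112.4 ± 32.8 CPM, and mir-125b at 8.90 ± 2.22, 78.5 ± 21.6 and 193.2 ± 27.5 CPM. Among SAFB libraries, guide 1 of batch 1 was highest for the mean of the members and for mir-148a, mir-196a, mir-196b and mir-342, whereas guide 2 of batch 2 was highest for mir-125b. All compared miRNAs share libraries and scaling, and the cause of the likeness was not tested.

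**Figure D5:**
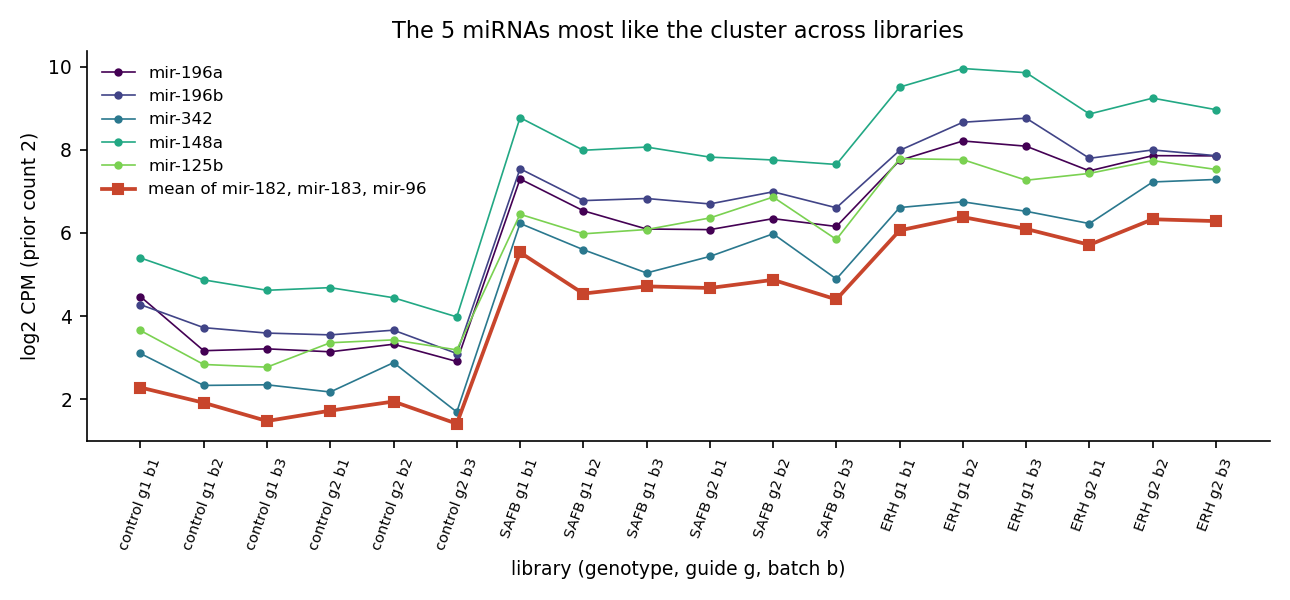
Log2 CPM in the 18 libraries of the mean of mir-182, mir-183 and mir-96 (red squares) and of the 5 miRNAs with the highest r to it. By genotype mean, each line is lowest in control, higher in SAFB and highest in ERH, and all but mir-125b peak in guide 1 of batch 1 among SAFB libraries.

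Lists of miRNAs known from the tissues and pathways in which the cluster is studied were described beside it. Of 9 tested sensory and neuronal miRNAs, 6 were called higher and 0 lower in each knockout against control, and their median log2 fold change was 0.99 for SAFB and 0.90 for ERH. The background was 30.8% called higher and 25.3% lower in SAFB, with a median of 0.0083, and 26.4% and 27.5% in ERH, with a median of -0.061. Its most abundant members were mir-7a, at 5263 ± 562.8 CPM in control and not called in either knockout (0.21 and 0.0079), and mir-128, which rose by 0.29 in SAFB (SE 0.076, edgeR adjusted p = 0.0024) and by 0.26 in ERH (SE 0.076, edgeR adjusted p = 0.0055). With spike-in scaling mir-128 was not called (0.017 and 0.54, edgeR adjusted p = 0.965 and 0.054). Between ERH and SAFB, 4 of the 9 were called higher in ERH and 0 lower, beside a background of 23.8% higher and 15.8% lower. For the lists below, 4 of 11 epithelial miRNAs were called higher and 3 lower, and 6 of 16 lymphocyte and B cell miRNAs higher and 5 lower. Of 9 miRNAs linked to STAT5, interleukin signalling or FOXO, 2 were higher, mir-182 among them, and 4 lower. By spike-ins these splits were 6 to 0, 8 to 1 and 5 to 0.

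Of 11 tested epithelial miRNAs, 5 were called higher and 1 lower in each knockout, with medians of 0.50 and 0.44. The background is that given above, 30.8% higher and 25.3% lower in SAFB and 26.4% and 27.5% in ERH. With spike-in scaling 2 epithelial miRNAs were called higher in SAFB, with a median of 0.24, and 5 in ERH, with a median of 0.73. Scaled by total counts, 7 were called higher in each, with medians of 0.54 and 0.74. The abundant mir-34c was at 943.2 ± 179.4 CPM over control, 1137 ± 252.4 over SAFB and 1493 ± 294.0 over ERH libraries (SD, n = 6), and mir-34b at 177.1 ± 27.8, 168.1 ± 30.9 and 247.6 ± 60.7 CPM; the lower call was mir-192 in both. Of 16 tested lymphocyte and B cell miRNAs, the calls were 2 higher against 9 lower for SAFB, and 2 higher against 12 lower for ERH, with medians of -0.61 and -0.40. With DESeq2 size factors the lower calls for ERH were 10, with a median of -0.33. They were 5 when scaled by total counts and 2 when scaled by spike-ins, with medians of -0.096 and -0.11. Those for SAFB were 9 under each of these scalings. mir-142a, the most abundant of them and specific to blood cells, was at 145243 ± 10572 CPM over control, 139106 ± 6994 over SAFB and 123734 ± 10645 over ERH libraries, and mir-21a at 71092 ± 6396, 68003 ± 4287 and 52194 ± 5938 CPM. Both were among the lower calls in ERH (-0.23 and -0.45 on the log2 scale) and not called in SAFB (-0.062 and -0.064). The calls of these miRNAs in ERH did not hold when scaled by total counts or by spike-ins. There mir-142a was at 0.073 and 0.047, the opposite direction, and mir-21a at -0.14 and -0.18, none of them called.

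Of 9 tested miRNAs linked to STAT5, interleukin signalling or FOXO in lymphocytes, a list that holds mir-182 itself, the calls were 2 higher against 4 lower for SAFB, and 1 higher against 6 lower for ERH. The higher call in ERH, and 1 of the 2 in SAFB, is mir-182, which was chosen for being higher. The medians were -0.12 and -0.38. Over all tested miRNAs, 30.8% were called higher and 25.3% lower in SAFB, and 26.4% and 27.5% in ERH. Scaled by total counts and by spike-ins, the lower calls for ERH were 2 and 0, with medians of -0.070 and -0.097. With DESeq2 size factors they were 6, with a median of -0.30. Those for SAFB were 4 under each scaling, with medians of -0.081 by total counts and -0.39 by spike-ins. mir-223, a myeloid miRNA on this list, was at 9611 ± 2646 CPM over control, 17414 ± 2247 over SAFB and 9214 ± 2114 over ERH libraries (SD, n = 6). It thus stood higher in SAFB by 0.86 (SE 0.15, edgeR adjusted p = 4.0e-05) and at -0.061 in ERH (SE 0.15, edgeR adjusted p = 0.769).

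Marker miRNAs of other cell types were summed in each library. The B and lymphoid markers (4 of 5 in the table, none at 0) reached 138018 to 161442 CPM over control, 137092 to 155750 over SAFB and 115770 to 144316 over ERH libraries. Most of each sum was mir-142a, a miRNA of blood cells in general, so the sums do not identify the pro-B lineage. On the log2 CPM scale, mir-150 ran from 3.97 to 4.68 over control, 1.01 to 2.81 over SAFB and 2.39 to 3.64 over ERH libraries. For mir-155 the ranges were 10.64 to 10.88, 10.49 to 10.87 and 10.26 to 10.57. For mir-181a they were 11.35 to 11.82, 11.96 to 12.42 and 11.75 to 12.28. Mesenchymal and fibroblast markers (9 of 10 in the table) summed to 82.1 to 144.8 CPM over control, 485.3 to 913.9 over SAFB and 1432 to 2542 over ERH libraries. The order of these sums, which is that of the cluster, comes with mir-10a, mir-10b, mir-196a and mir-196b, whose mean CPM ran from 8.27 to 32.0 over control and from 208.8 to 1018 over ERH libraries. The other members did not follow it: mir-143 was at 14.1, 20.7 and 15.4 CPM over control, SAFB and ERH libraries, mir-199a at 16.7, 14.3 and 17.2, and mir-199b at 15.6, 13.9 and 19.2, with mir-145a under 1 CPM in each. Of this list, mir-214 was at 0 counts in all SAFB and ERH libraries but not in all control libraries. Neuronal markers, 6 of 6 in the table, summed to 1843 to 2248 CPM over control, 2394 to 2966 over SAFB and 2708 to 4454 over ERH libraries, with mir-137 at 0 in every genotype and mir-124 at 0 in control. The abundant neuronal miRNA mir-128 was at 2026, 2476 and 2427 CPM over control, SAFB and ERH libraries, so not higher in ERH than in SAFB. In log2 CPM, mir-218 ran from 4.10 to 4.92 over control, 7.23 to 7.99 over SAFB and 8.53 to 10.46 over ERH libraries. For mir-9 the ranges were 2.28 to 4.03, 5.71 to 6.75 and 7.61 to 8.56. For mir-129, near the floor, they were -0.81 to 0.25, -0.22 to 1.17 and 1.31 to 2.32.

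The epithelial markers, 6 of 6 in the table and none at 0, were at 145.3 to 201.8 CPM over control, 195.0 to 224.0 over SAFB and 147.5 to 182.5 over ERH libraries. Erythroid markers (4 of 5 in the table, none at 0) reached at most 3.09, 9.22 and 11.4 CPM. The hepatocyte marker mir-122 reached at most 8.32, 15.3 and 34.2 CPM. Muscle markers reached at most 5.80, 3.37 and 4.57 CPM, with mir-206 at 0 in all genotypes. Pluripotent markers reached at most 8.63, 6.69 and 2.88 CPM, with 5, 6 and 5 of 10 at 0. The part of any of these lists in the level of the cluster was not tested.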

How the data were processed

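Small RNA libraries were made with the QIAseq miRNA kit from total RNA with spike-ins, per the labels' protocols. The deposited file holds whole-number read counts per miRNA precursor, not normalized by the authors. SAMtools is named in the submitters' processing notes; the aligner, counting program, build, annotation, multi-mapping and collapsing of molecular identifiers are not given in the sources used here. Depth therefore speaks to counting error only, and p-values measure the spread between libraries, which may be partly technical. Pairs of libraries of a population differed beyond sampling noise (chi-square per degree of freedom 27.5 to 157.1, 18 pairs).

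Counts without spike-ins entered edgeR's quasi-likelihood test (version 4.0.16, R 4.3.3): filterByExpr by population (minimum count 10), TMM, 1 mean per genotype over 18 libraries, Benjamini-Hochberg adjustment over 273 miRNAs. The SE is the log2 fold change divided by the square root of F. Guides were compared with 1 mean per population. Ratios used a pseudocount of 0.5 and exact permutation tests (scipy 1.17.1), 9 adjusted together. Folding used ViennaRNA 2.7.2. Of 1006 precursors, 931 matched a GENCODE M21 gene by name; sequences of all 3 members matched RefSeq's table. On 603 simulated miRNAs for ERH minus SAFB (245 tested), the fit called 100% of those changed by 1 and 100% of those changed by 2 on the log2 scale, and 6.25% of its calls were false. The simulation gave every miRNA the same fixed dispersion, with no effect of guide population or batch. These percentages hold for that setting and do not measure how the fit does at the members' own spread.

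The batch number in the labels pairs libraries. Checked over the 153 miRNAs averaging 100 counts or more, deviations from the population mean had a mean correlation of 0.094 within a batch (45 pairs, -0.33 to 0.64) and of -0.047 between batches (90 pairs). Alternatives were other scalings, DESeq2 1.42.0, no filter, a block for batch, another pseudocount, summed counts, and leaving out libraries or populations. The members and lists were chosen with earlier results of these data known. Named miRNAs were the members, the 5 most similar by each measure of likeness, and, from each list, those of highest mean CPM in control and in ERH; all others, such as the single marker miRNAs and the pairs of other clusters, were named after their values were seen.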

Additional observations from a re-analysis of the deposited data

Results flagged for a closer look

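Of 18 groups of 6 libraries examined for a library far from the others (3 hairpins and 3 ratios in 3 genotypes), 3 had one, all in SAFB guide 1; chance gives about 1 in 20, and the hairpins and ratios share their counts. In batch 1, mir-183 was at 6.12 log2 CPM against 4.63 to 5.18 in the other 5 SAFB libraries, the gap being 0.63 of the range. In the same library the log2 ratio of mir-182 to mir-183 was 0.15 against 0.54 to 0.71 in the others, the gap being 0.698 of the range. In batch 3, the log2 ratio of mir-96 to mir-183 was -0.30 against -2.35 to -1.66 in the others, the gap being 0.66 of the range. Without SAFB guide 1 of batch 1, the ERH minus SAFB difference of mir-183 was 1.39 (edgeR adjusted p = 3.6e-06), and without that of batch 3 it was 1.02 (edgeR adjusted p = 0.00086). Without that of batch 3, the log2 ratio of mir-96 to mir-183 was 0.70 in ERH minus SAFB (against 0.43) and -0.65 in SAFB minus control (against -0.38). For mir-96 to mir-182 these were 0.53 (against 0.26) and -0.36 (against -0.095), none past the threshold.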

How the results depend on the processing

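Under 22 alternatives each, the hairpins stayed higher in ERH than in SAFB and past the threshold: mir-182 by 1.16 to 1.84, mir-183 by 0.94 to 1.64 and mir-96 by 1.20 to 2.03 on the log2 scale, with edgeR or DESeq2 adjusted p at most 0.00087, 0.018 and 0.0029. The replicate block gave 1.35, 1.18 and 1.52 and changed no call of a member or ratio. Against control, under 22 alternatives for each comparison, the members ranged from 2.93 to 3.44, 3.29 to 3.79 and 3.00 to 3.61 in SAFB, and from 4.29 to 4.78, 4.52 to 4.95 and 4.64 to 5.10 in ERH, for mir-182, mir-183 and mir-96. Spike-in scaling moved the calls in ERH minus control from 147 to 91 (72 higher, 19 lower, against 72 and 75), in SAFB minus control to 44 higher and 58 lower (against 84 and 69), and scaling by total counts turned those of ERH minus control into 108 higher against 33 lower. No difference between guides passed the threshold under the 10 alternatives run for each (scalings, block, libraries left out), and no ratio under its 19. The list miRNA mir-142a in ERH minus control, with an alternative chosen after seeing the data, turned from -0.23 to 0.073 by total counts and 0.047 by spike-ins. Between guides, spike-in scaling gave 0.25, 0.42 and 0.51 for mir-182, mir-183 and mir-96 in control and 0.28, 0.58 and 0.75 in ERH, the last 2 with edgeR adjusted p = 0.145 and 0.088. Between control guides, leaving out 1 library gave -0.65 to -0.20 for mir-182, -0.43 to 0.13 for mir-183 and -0.36 to 0.22 for mir-96. In SAFB it gave -0.40 to 0.14 for mir-182 and -0.65 to 0.18 for mir-183. There mir-96 was -1.07 without guide 1 replicate 2 and -0.40 without guide 1 replicate 3, against -0.66. In ERH it gave -0.48 to -0.13 for mir-182, -0.23 to 0.30 for mir-183 and -0.073 to 0.25 for mir-96. Among the ratios, leaving out 1 library gave -0.060 to 0.26 for mir-96 to mir-183 in ERH minus control and -0.36 to 0.076 for mir-96 to mir-182 in SAFB minus control. The ratio of mir-96 to mir-183 in ERH minus control became -0.046 with a pseudocount of 1, -0.062 without control guide 1 and -0.044 without ERH guide 2. The ratio of mir-96 to mir-182 became -0.010 without control guide 1 and -0.056 without ERH guide 2 in ERH minus control, and 0.085 without control guide 2, 0.11 without SAFB guide 2 and 0.079 with summed counts in SAFB minus control. mir-182 to mir-183 became 0.012 in ERH minus control without ERH guide 2. The cause of these sign changes was not tested. The control libraries held 200 cluster counts in all.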
